A study of Mus musculus with 6 samples.

Results

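DNA replication and nucleotide synthesis genes were followed in mouse invariant natural killer T (iNKT) cells, T cells with a nearly fixed T cell receptor that recognise CD1d-bound lipids and need PLZF (gene Zbtb16), a zinc finger transcription factor. The list holds 43 genes, chosen by function but with earlier results of these data known. Of these, 42 had a row of their own among 22180 measured genes. The remaining one, Rfc4, shares its array row with Eif4a2 and was not analysed here. Wild-type mice (genotype WT, source "control", 3 arrays) were compared with mice whose PLZF is constantly in its acetylated form (genotype PLZF_ON, 3 arrays). The labels give iNKT cells as the cell type of all 6 arrays. The RNA protocol speaks of frozen tissue. For organ, sorting, strain, age, the construction of the PLZF_ON allele and the cells that carry it, nothing was given in the labels. The study names replicates 1 and 2 of each genotype as the 4 arrays it analysed, and replicate 3 of each was deposited beside them. Whether each replicate is its own animal is not stated, and the p-values therefore cover only the spread among these arrays, possibly technical.

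A cell copies its DNA once per division. In G1 the origin recognition complex, Cdc6 and Cdt1 load the ring of Mcm2 to Mcm7 onto origins. At the start of S phase Cdc45 and the GINS complex turn the ring into the moving helicase, and polymerases with the sliding clamp Pcna copy both strands. Ribonucleotide reductase, thymidylate synthase and thymidine kinase supply the deoxynucleotides. Many of these genes are switched on together by E2F transcription factors when a T cell enters the cycle. Developing iNKT cells divide vigorously in the thymus and most mature ones rest.

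A feature that the choice of genes did not use is the E2F word, a short run of letters of the kind E2F proteins bind, and the sequences before the start site are shown for 6 of the members that carry it there and for Tyms and Rrm2, 2 of the members that have no such word. RefSeq promoter windows (GRCm38.p6, 250 bases before to 50 after each start) were held for 35 of the 43 genes. The 4 words TTTCCCGC, TTTCGCGC, TTTGCCGC and TTTGGCGC were searched on both strands, and they can overlap each other, as in Mcm5 and Mcm6. At least 1 of them stood in a window of 14 of the 35 genes (40.0%), against 704 of 27025 genes with a window (2.605%). The CCAAT box, searched as CCAAT on both strands, stood in windows of 20 of the 35 (57.1%), against 41.1% of all genes. Each stretch below covers the 160 bases before the start, 5′ to 3′ on the gene's strand, and capitals mark the E2F words and CCAAT boxes. The stretches are chr11:98907991-98908150 (plus strand) for Cdc6, chr4:108579294-108579453 (plus) for Orc1, chr8:75109349-75109508 (plus) for Mcm5, chr1:128359706-128359865 (minus) for Mcm6, chr8:95633399-95633558 (plus) for Gins3, chrX:93632156-93632315 (minus) for Pola1, chr5:30073626-30073785 (minus) for Tyms and chr12:24708094-24708253 (plus) for Rrm2.
Cdc6: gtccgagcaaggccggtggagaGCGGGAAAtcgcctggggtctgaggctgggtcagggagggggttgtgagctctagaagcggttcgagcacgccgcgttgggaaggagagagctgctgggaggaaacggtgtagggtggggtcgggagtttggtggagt
Orc1: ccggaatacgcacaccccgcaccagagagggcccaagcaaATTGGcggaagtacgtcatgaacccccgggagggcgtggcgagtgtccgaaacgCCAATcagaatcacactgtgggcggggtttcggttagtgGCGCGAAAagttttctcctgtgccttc
Mcm5: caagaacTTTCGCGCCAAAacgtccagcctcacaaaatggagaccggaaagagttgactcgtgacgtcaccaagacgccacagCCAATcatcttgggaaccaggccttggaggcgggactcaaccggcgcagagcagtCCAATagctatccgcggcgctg
Mcm6: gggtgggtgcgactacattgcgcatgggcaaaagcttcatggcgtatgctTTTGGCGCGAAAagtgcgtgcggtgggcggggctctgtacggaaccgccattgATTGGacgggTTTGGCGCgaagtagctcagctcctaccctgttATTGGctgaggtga
Gins3: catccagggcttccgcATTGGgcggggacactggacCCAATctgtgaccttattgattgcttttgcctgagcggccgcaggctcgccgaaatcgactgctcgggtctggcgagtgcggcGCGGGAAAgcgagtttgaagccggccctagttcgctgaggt
Pola1: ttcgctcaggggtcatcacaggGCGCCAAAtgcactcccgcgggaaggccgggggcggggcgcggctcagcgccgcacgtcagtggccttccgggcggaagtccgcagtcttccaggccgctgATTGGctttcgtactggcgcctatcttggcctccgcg
Tyms: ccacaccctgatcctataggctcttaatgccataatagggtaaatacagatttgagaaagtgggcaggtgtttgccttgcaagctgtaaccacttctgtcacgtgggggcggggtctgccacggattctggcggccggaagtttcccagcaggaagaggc
Rrm2: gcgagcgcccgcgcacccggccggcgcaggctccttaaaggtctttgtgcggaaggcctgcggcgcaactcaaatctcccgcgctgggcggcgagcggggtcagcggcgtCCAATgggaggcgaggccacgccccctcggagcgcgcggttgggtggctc

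In Mcm5 the words TTTCGCGC and TTTGGCGC, read on opposite strands, overlap in a single stretch, and Mcm6 has such a stretch and a separate word closer to the start. Tyms and Rrm2, like Prim1, Orc6 and others, have no E2F word in their windows, which says only that these letters are not there. The other members with a word were Uhrf1 (before the start), Mcm3, Cdt1, E2f2, Lig1 and Pold1 (after it), and Mcm7 and Rfc3 (on both sides).

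**Figure D1:**
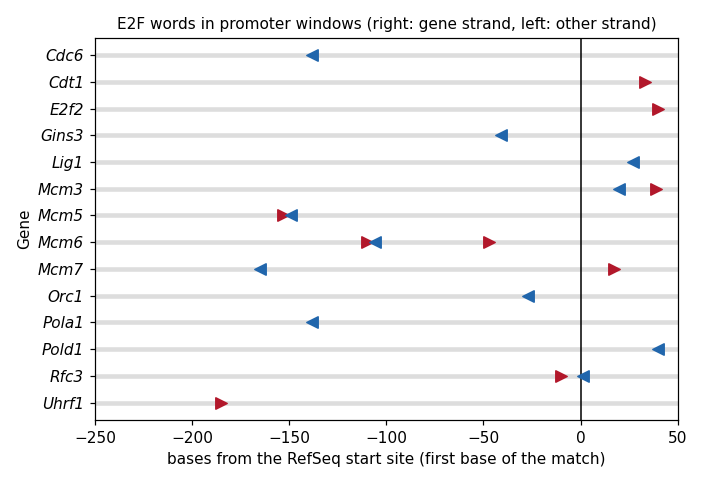
Position of the E2F words in the promoter windows of the 14 genes that hold one, in bases from the RefSeq start site (x axis, window from -250 to 50). Triangles pointing right are words on the gene's own strand and those pointing left are words on the other strand. Mcm5 and Mcm6 show overlapping pairs, and Mcm7 has its words at -165 and 17.

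All 6 arrays carried T cell transcripts: the 10 measured T and iNKT cell markers, among them Cd3e and Zbtb16, had means above 5.21 log2. Zbtb16 itself read 9.96, 10.19 and 9.82 across WT replicates 1 to 3 and 10.48, 10.68 and 9.54 in PLZF_ON. The limit is the level under which 95 percent of 1394 odorant and pheromone receptor genes lay, a class taken as silent in T cells. Some of the 10 markers differed between the genotypes. Cd4 and Slamf6 read higher on every PLZF_ON array than on every WT array, as did 5.55% of all rows. Cd44 and Cd3d read lower on every PLZF_ON array, as did 6.22% of all rows. Over the 4 arrays named by the study the differences were 1.28 (Cd4), 1.34 (Slamf6), -1.06 (Cd44) and -0.19 (Cd3d). None of the 10 had a limma adjusted p under 0.05, and a link to the replication gene values was not tested. All 5 measured B cell markers had means under the limit. PLZF_ON replicate 3 stood apart. Its correlation with the other 5 arrays was 0.941 to 0.944 across rows, against 0.972 to 0.987 among those 5, and its spread over rows was narrower (SD 1.61, against 1.85 to 1.91). Immature thymocyte markers were high on it: Cd24a read 4.92, 4.50 and 9.58 in PLZF_ON replicates 1 to 3 and 5.27, 4.52 and 4.41 in WT. Dntt, which adds bases at T cell receptor joints, read 3.78, 4.10 and 7.19 in PLZF_ON and 3.46, 4.03 and 4.07 in WT. The mean over the 7 measured markers of that list was 6.91 on that array and between 4.72 and 4.87 on the others, while Rag2 stayed under the limit on all 6 arrays. The 8 myeloid and dendritic markers averaged 5.02 on that array and 4.26 to 4.64 elsewhere. Lyz2 rose most (6.58, against 4.48 or less), while Itgam, Itgax and Flt3 were highest on PLZF_ON replicate 1. The B cell markers (4.29, against 4.03 to 4.12) and erythroid markers (5.19, against 4.81 to 4.98) also averaged higher on PLZF_ON replicate 3. So did the median over all tested rows (5.17, against 5.01 to 5.05). The part of the marker transcripts in the replication gene values of that array was not tested, and counts are given with and without it.

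Over the 4 arrays named by the study, 37 of 42 members had a higher mean in PLZF_ON than in WT (88.1%), against 49.3% of all 23521 tested rows. The median member differed by 0.26 on the log2 scale, with the middle 50% of members between 0.13 and 0.44, and all tested rows had a median of -0.0035. No member passed the test: in limma, fitted on all rows with Benjamini-Hochberg adjustment, 0 of 42 had an adjusted p under 0.05, against 0.17% of all rows, and the smallest was 0.186. At an unadjusted p under 0.05 there were 5 members (11.9%), against 9.41% of all rows in either direction. All 5 were higher in PLZF_ON (Orc6, Gins2, Prim1, Tyms and E2f1), as were 4.88% of all rows, and 0 were lower, against 4.53% of all rows. The genotypes did not overlap over the 4 arrays for 7 members, all higher in PLZF_ON (16.7%), and 18.9% of all rows did the same in that direction. In the lower direction 0 of 42 members were parted, against 19.3% of all rows. The share of members with a higher mean was above that of all rows, and the share parted in the higher direction was not. The values depended on single arrays in both directions. Without WT replicate 1, 22 of 42 members were higher (median 0.014), and without PLZF_ON replicate 2, 21 (median 0.021). Without WT replicate 2, 36 were higher (median 0.59), and without PLZF_ON replicate 1, 39 (median 0.47). In bulk RNA, a larger share of cells with these mRNAs and more of each mRNA per cell cannot be told apart.

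Levels also differed between replicates. Replicate 2 read above replicate 1 in both genotypes for 32 of 42 members (76.2%), against 25% of all rows. The median member was 0.52 higher in WT replicate 2 than in WT replicate 1, and 0.43 higher in PLZF_ON replicate 2 than in PLZF_ON replicate 1. The mean replicate difference was larger in size than the genotype difference for 31 members and smaller for 11. PLZF_ON replicate 2 was the highest of the 6 arrays for 31 members, whereas the lowest was WT replicate 1 for 14, PLZF_ON replicate 3 for 14 and WT replicate 3 for 12. For 26 members PLZF_ON replicate 1 lay above WT replicate 1 and below WT replicate 2.

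**Figure D2:**
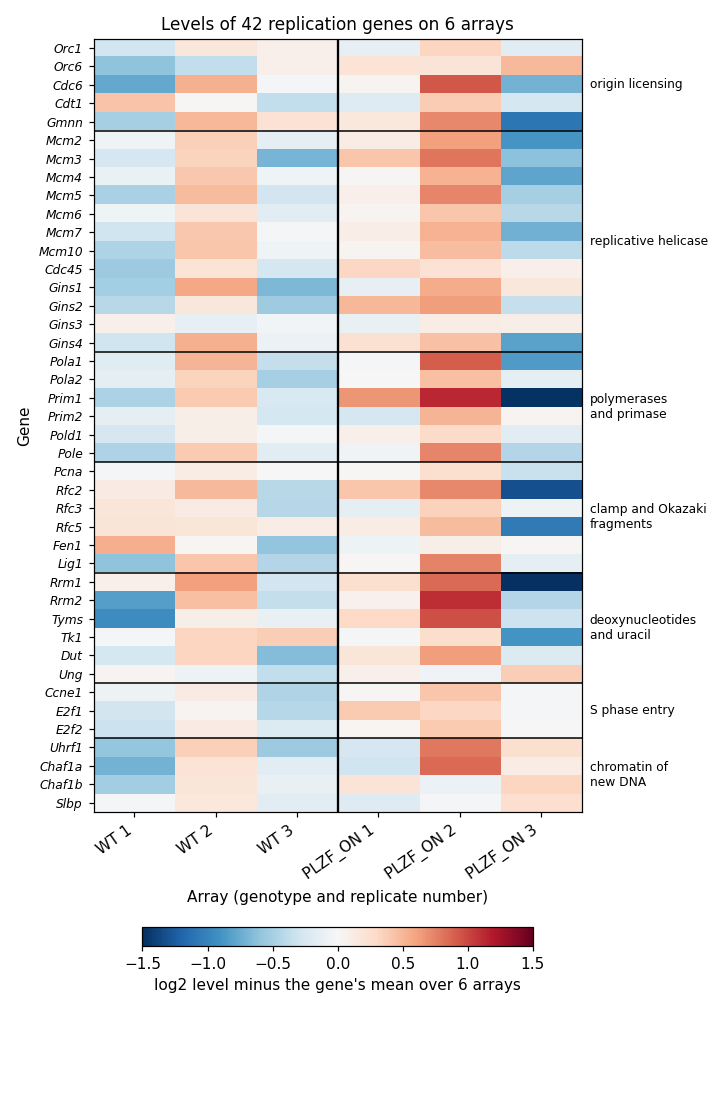
Levels of the 42 measured members on the 6 arrays (columns), as the log2 level minus each gene's own mean over the 6 arrays, with genes in rows grouped by role. Red is above and blue below that mean. PLZF_ON replicate 2 is the highest array for 31 members, and PLZF_ON replicate 3 is the lowest for 14, with Prim1 and Rrm1 darkest.

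Set side by side by replicate number, a pairing that no label states, PLZF_ON read above WT in replicate 1 for 35 of 42 members (48.8% of all rows) and in replicate 2 for 37 (50.9% of all rows). The median differences were 0.34 and 0.25. In both replicates 1 and 2 it did so for 31 members (73.8%), against 27.2% of all rows. In replicate 3, 21 of 42 were above WT (55.9% of all rows), with a median of 0.0010. After quantile normalization of the arrays again these values were 26 of 42 and 0.29, and after median centring 20 of 42 and -0.09. The members that were above WT in all 3 replicates numbered 13 (15.3% of all rows): Orc6, Mcm3, Cdc45, Gins2, Pola2, Lig1, Dut, Ung, Ccne1, E2f1, E2f2, Uhrf1 and Chaf1a. In replicate 3 there were 5 members more than 1 log2 unit below WT (6.7% of all rows), namely Gmnn, Prim1, Rfc5, Rrm1 and Tk1.

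**Figure D3:**
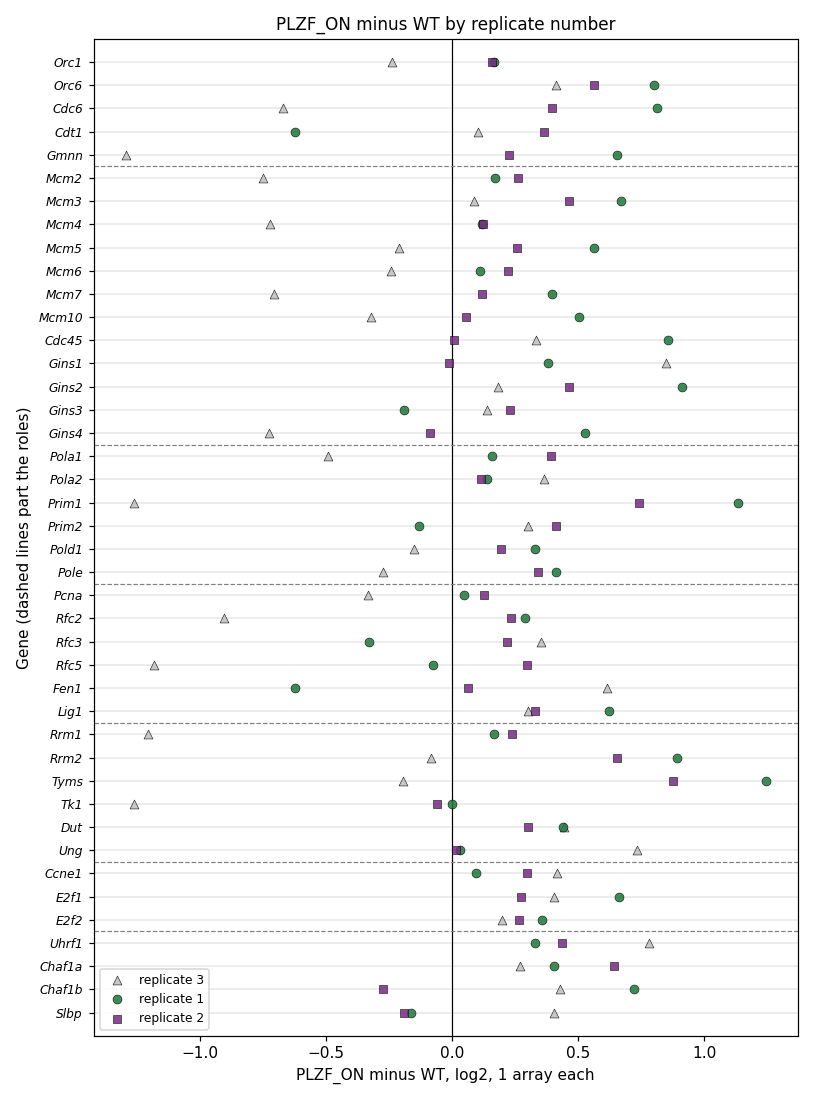
PLZF_ON minus WT on the log2 scale (x axis) for each of the 42 members (y axis, in order of role), as circles for replicate 1, squares for replicate 2 and triangles for replicate 3, each from 1 array per genotype. Circles and squares lie above 0 together for 31 members, while the triangles lie above 0 for 21.

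Origin licensing genes were higher in PLZF_ON for 4 of 5 members over the 4 arrays (median 0.44). Orc6, the smallest subunit of the origin recognition complex, read 6.55, 6.78 and 7.23 across WT replicates 1 to 3 and 7.35, 7.34 and 7.64 in PLZF_ON. Every PLZF_ON array was above every WT array. This held for no other member over 6 arrays and for 5.55% of all rows. Its difference was 0.68 over the 4 arrays (SE 0.14, n = 2 per group, limma adjusted p = 0.186) and 0.59 over 6 (SE 0.21, limma adjusted p = 0.714). Cdc6, the ATPase that loads the MCM ring, read 5.32, 6.63 and 6.06 in WT and 6.13, 7.03 and 5.39 in PLZF_ON. WT replicate 2 stood above PLZF_ON replicate 1, and the difference over 4 arrays was 0.60 (SE 0.47, limma adjusted p = 0.807).

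Cdt1, the loading partner of Cdc6, and geminin (Gmnn), the protein that binds and blocks it, had differences of opposite sign over the 4 arrays. Cdt1 read 7.50, 7.08 and 6.69 in WT and 6.87, 7.45 and 6.80 in PLZF_ON, with the highest level in WT replicate 1 and a difference of -0.13 (SE 0.24, limma adjusted p = 0.938). Gmnn read 6.09, 7.08 and 6.80 in WT and 6.74, 7.30 and 5.51 in PLZF_ON. Its PLZF_ON replicate 3 was the lowest of the 6 arrays, and the difference was 0.44 over 4 arrays and -0.14 over 6 (SE 0.35 and 0.46). Orc1, the ATPase subunit of the origin complex, differed by 0.16 (SE 0.22).

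All 12 genes of the replicative helicase had a higher mean in PLZF_ON over the 4 arrays, with a median of 0.24 and a range from 0.019 to 0.69, and 8 of 12 did over all 6. Mcm2, a subunit of the ring, read 7.56, 7.97 and 7.49 in WT and 7.73, 8.23 and 6.74 in PLZF_ON, a difference of 0.22 (SE 0.22, limma adjusted p = 0.87). Mcm3 read 7.37, 7.95 and 6.92 in WT and 8.03, 8.41 and 7.002 in PLZF_ON. Replicates 1 and 2 of PLZF_ON were above all 3 WT arrays, and the difference of 0.57 was the largest of the ring subunits (SE 0.24, limma adjusted p = 0.543). The other ring subunits differed by 0.12 (Mcm4), 0.41 (Mcm5), 0.17 (Mcm6) and 0.26 (Mcm7), with SEs from 0.18 to 0.36. Mcm2 to Mcm7 read lower in PLZF_ON replicate 3 than in WT replicate 3 apart from Mcm3, with differences from -0.75 (Mcm2) to -0.21 (Mcm5). Mcm10, which helps to start the helicase, differed by 0.28 (SE 0.30).

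Cdc45, which joins the MCM ring to make the active helicase, read 5.71, 6.45 and 5.99 in WT and 6.56, 6.46 and 6.32 in PLZF_ON. The genotypes were parted over the 4 arrays by a margin of 0.006, between WT and PLZF_ON replicate 2, and the difference was 0.43 (SE 0.25, limma adjusted p = 0.71). Of the 4 GINS subunits, which bind Cdc45 and the ring, Gins2 showed the largest difference. It read 6.19, 6.77 and 6.07 in WT and 7.10, 7.24 and 6.26 in PLZF_ON, with PLZF_ON replicates 1 and 2 above all WT arrays (0.69, SE 0.21, limma adjusted p = 0.382). Gins3 was nearly level, at 6.62, 6.42 and 6.49 in WT and 6.43, 6.65 and 6.63 in PLZF_ON (0.019, SE 0.15). Gins1 and Gins4 differed by 0.19 and 0.22 (SE 0.39 and 0.28). Gins1 read under the receptor limit of 5.21 on 4 of the 6 arrays.

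The 6 genes of polymerases and primase all had higher means in PLZF_ON, over 4 arrays (median 0.27) and over 6 (median 0.18). Prim1, the catalytic primase subunit that lays the RNA primers, read 6.48, 7.34 and 6.72 in WT and 7.61, 8.08 and 5.47 in PLZF_ON. Replicates 1 and 2 of PLZF_ON were the 2 highest arrays and replicate 3 the lowest of all 6. The difference was 0.94, or 1.92-fold, over the 4 arrays (SE 0.31, limma adjusted p = 0.407) and 0.21 over 6 (SE 0.62, limma adjusted p = 0.969). Its partner Prim2 differed by 0.14 (SE 0.26). Pola2, the accessory subunit of polymerase alpha, read 6.37, 6.84 and 6.01 in WT and 6.51, 6.95 and 6.37 in PLZF_ON, a difference of 0.13 (SE 0.22, limma adjusted p = 0.934). The catalytic subunits of polymerases alpha, delta and epsilon differed by 0.28 (Pola1), 0.26 (Pold1) and 0.38 (Pole), with SEs of 0.36, 0.17 and 0.35. A second row of Pole, with a lower mean, gave 0.095 (SE 0.38).

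Among the clamp, its loader and the enzymes that finish Okazaki fragments, 4 of 6 measured members were higher, with a median of 0.099, the lowest of the 7 roles. Pcna, the sliding clamp, read 10.32, 10.46 and 10.35 in WT and 10.37, 10.59 and 10.01 in PLZF_ON. The genotypes overlapped, with PLZF_ON replicate 3 lowest and PLZF_ON replicate 2 highest, and the difference was 0.088 (SE 0.15, limma adjusted p = 0.931). Rfc3, a clamp loader subunit, read 6.23, 6.17 and 5.62 in WT and 5.90, 6.38 and 5.97 in PLZF_ON, with PLZF_ON replicates 1 and 2 on either side of WT replicates 1 and 2 (-0.054, SE 0.19). Rfc2 and Rfc5 differed by 0.26 and 0.11 (SE 0.18 and 0.16), and both had their lowest value in PLZF_ON replicate 3.

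Fen1, the nuclease that trims flaps off Okazaki fragments, read 6.32, 5.80 and 5.18 in WT and 5.70, 5.86 and 5.79 in PLZF_ON. WT replicate 1 was the highest and WT replicate 3 the lowest array, and the difference of -0.28 was the most negative of the 42 (SE 0.20, limma adjusted p = 0.778). A second, dimmer row of Fen1 gave 0.0025 (SE 0.31). DNA ligase 1 (Lig1), which seals the fragments, read 7.33, 8.34 and 7.49 in WT and 7.95, 8.67 and 7.79 in PLZF_ON. It was above WT within each replicate number, yet WT replicate 2 exceeded PLZF_ON replicate 1, and its difference was 0.48 (SE 0.38, limma adjusted p = 0.81).

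Deoxynucleotide synthesis held the largest single difference and some of the smallest. Thymidylate synthase (Tyms), which makes dTMP from dUMP, read 5.98, 7.02 and 6.81 in WT and 7.22, 7.90 and 6.61 in PLZF_ON. PLZF_ON replicates 1 and 2 were above the 3 WT arrays, and PLZF_ON replicate 3 was below 2 of them. The difference over the 4 arrays was 1.06, or 2.09-fold (SE 0.38, limma adjusted p = 0.445), and 0.64 over 6 (SE 0.37, limma adjusted p = 0.941). Rrm2, the ribonucleotide reductase subunit that is made in S phase, read 7.16, 8.44 and 7.63 in WT and 8.05, 9.10 and 7.54 in PLZF_ON. Its WT replicate 2 stood above PLZF_ON replicates 1 and 3, and the difference was 0.77 (SE 0.49, limma adjusted p = 0.738). The second row of Rrm2 gave 0.64 (SE 0.49).

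Rrm1, the large reductase subunit, differed by 0.20 over 4 arrays (SE 0.27) and -0.27 over 6 (SE 0.55), with PLZF_ON replicate 3 at 5.76 and the other arrays at 6.97 or more. Thymidine kinase 1 (Tk1), the salvage route to dTMP, read 7.02, 7.36 and 7.41 in WT and 7.02, 7.30 and 6.15 in PLZF_ON. It was level between genotypes in replicates 1 and 2 (-0.029, SE 0.18, limma adjusted p = 0.981), and PLZF_ON replicate 3 was the lowest array. Dut, the dUTPase that keeps uracil out of DNA, differed by 0.37 (SE 0.25) and was above WT by 0.30 to 0.44 within the replicate numbers. The uracil glycosylase Ung differed by 0.024 (SE 0.14).

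Each of the 3 genes of S phase entry was higher in PLZF_ON within every replicate number. E2f1, an activating E2F transcription factor, read 5.25, 5.56 and 5.09 in WT and 5.92, 5.84 and 5.50 in PLZF_ON. PLZF_ON replicates 1 and 2 were above all WT arrays and replicate 3 was above WT replicates 1 and 3. The difference was 0.47 over 4 arrays (SE 0.16, limma adjusted p = 0.42) and 0.45 over 6 (SE 0.19, limma adjusted p = 0.861), with WT means near the receptor limit. Cyclin E1 (Ccne1), the CDK2 partner that opens S phase, read 6.17, 6.38 and 5.80 in WT and 6.27, 6.67 and 6.22 in PLZF_ON, with overlapping genotypes (0.20, SE 0.18, limma adjusted p = 0.852). E2f2 differed by 0.31 (SE 0.21).

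Of the 4 genes that package or mark new DNA, 3 were higher over the 4 arrays. Chaf1a, the large subunit of the chromatin assembly factor that puts histones on new DNA, read 5.65, 6.56 and 6.19 in WT and 6.06, 7.20 and 6.46 in PLZF_ON. WT replicate 2 lay above PLZF_ON replicate 1, and the difference was 0.52 (SE 0.44, limma adjusted p = 0.823). Its partner Chaf1b was 0.72 above WT in replicate 1 and had a difference of -0.28 in replicate 2. Uhrf1, which brings the maintenance DNA methyltransferase to new strands, differed by 0.38 (SE 0.42). Slbp, the protein that binds the stem-loop of histone mRNA, read 7.94, 8.13 and 7.82 in WT and 7.78, 7.94 and 8.22 in PLZF_ON. It was the only member with lower PLZF_ON values in both replicates 1 and 2 (-0.18, SE 0.15, limma adjusted p = 0.82).

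**Figure D4:**
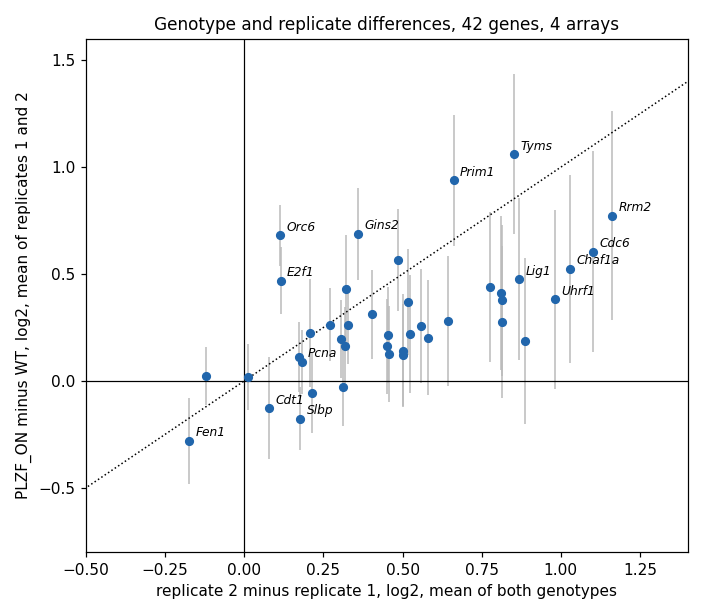
Genotype difference (y axis, PLZF_ON minus WT on the log2 scale, mean of replicates 1 and 2) against replicate difference (x axis, replicate 2 minus replicate 1, mean of both genotypes) for the 42 members. Bars are the SE of the genotype difference from limma, and the dotted line marks equal differences. The replicate difference is larger in size for 31 genes, and Orc6, E2f1, Gins2, Prim1 and Tyms are among those where the genotype difference is larger.

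Over all 6 arrays, 31 of 42 members had a higher mean in PLZF_ON (73.8%), against 54.9% of all rows, with a median of 0.17. In limma 0 of 42 passed at an adjusted p of 0.05 (0.0935% of all rows), and the smallest adjusted p was 0.714. Orc6 and E2f1 had an unadjusted p under 0.05, which is 4.76% of members against 5.77% of all rows. Without PLZF_ON replicate 3, the array with the thymocyte markers, and with WT replicate 3 kept, 40 of 42 members were higher (median 0.35), against 47.1% of all rows. Slbp and Tk1 were the exceptions. PLZF_ON replicates 1 and 2 then stood above all 3 WT arrays for 7 members (16.7%, against 12% of all rows): Orc6, Mcm3, Cdc45, Gins2, Prim1, Tyms and E2f1. Without PLZF_ON replicate 2 the 6-array count was 20 of 42 and the median -0.018.

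The genotype difference was set beside the promoter letters. The 14 members with a word had a median of 0.27 (from -0.13 to 0.60), and the 20 measured members without a word had a median of 0.22 (from -0.28 to 1.06). The difference between WT replicates 2 and 1 was 0.52 with a word and 0.44 without. These are descriptions of short windows, and the difference between the sets was not tested. Cdc6, with its GCGGGAAA before the start, differed by 0.60, Gins3, with the same letters, by 0.019, and Tyms, with none, by 1.06.

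Other genes of the pathway came from lists of 41 fork genes, 34 nucleotide synthesis genes and 30 G1 to S regulators. These lists were drawn up by function, but with earlier results of these data known, so they are no independent check. None passed limma over the 4 or 6 arrays in either direction. Of 38 other replication fork genes 30 had a higher mean in PLZF_ON over the 4 arrays (median 0.15), against 49.3% of all rows. Over 6 arrays 17 of 38 did (median -0.023), against 54.9% of all rows. At an unadjusted p under 0.05 over the 4 arrays there were 4, all higher, as were 4.88% of all rows. Cdc7, the kinase that fires origins, read 6.06, 6.14 and 5.81 in WT and 6.66, 6.97 and 6.47 in PLZF_ON. All PLZF_ON arrays were above all WT arrays (0.71, SE 0.16, limma adjusted p = 0.203). The next by p were Dna2, a flap nuclease (0.70), Pole2, a subunit of polymerase epsilon (0.66), and Atad5, which unloads Pcna (0.84). Their limma adjusted p-values were 0.379, 0.493 and 0.527. Dna2 read under the receptor limit of 5.21 on every WT array and on PLZF_ON replicate 3. Atad5 did so on WT replicates 1 and 3 and PLZF_ON replicate 3. Pole2 had a difference of -0.27 in replicate 3.

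Nucleotide synthesis outside the member list was divided over the 4 arrays, with 16 of 29 higher (49.3% of all rows) and a median of 0.014. Over 6 arrays 12 of 29 were higher (median -0.077), against 54.9% of all rows. At an unadjusted p under 0.05 over the 4 arrays 2 were higher and 1 lower, against 4.88% and 4.53% of all rows. Mthfd2, of mitochondrial folate metabolism, differed by 0.76, Ctps, which makes CTP, by 0.40, Tk2, the mitochondrial thymidine kinase, by -0.72, and Impdh1, of guanine nucleotide synthesis, by -0.44. The limma adjusted p-values of these 4 were 0.345, 0.425, 0.349 and 0.543. Of 29 other G1 to S regulators 21 were higher over the 4 arrays (median 0.13) and 16 over 6 (median 0.052). The shares of all rows were 49.3% and 54.9%. At an unadjusted p under 0.05 over the 4 arrays 6 were higher and 1 lower, against 4.88% and 4.53% of all rows. Cdk2, the S phase kinase, read 6.80, 7.07 and 6.82 in WT and 7.57, 7.54 and 6.08 in PLZF_ON, so that replicates 1 and 2 were above all WT arrays and replicate 3 below them (0.62, SE 0.15, limma adjusted p = 0.245). The repressor E2f6 differed by 0.57, the E2F partner Tfdp2 by 0.55, and Rbl2, the p130 pocket protein of resting cells, by -0.41, each with a limma adjusted p of 0.267 or more. E2f6 read under the receptor limit of 5.21 on every WT array and on PLZF_ON replicate 3. Tfdp2 had a difference of -1.015 in replicate 3 and of 0.028 over 6 arrays.

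Genes of mitosis, which follows S phase, were listed for comparison. All 19 measured were higher over the 4 arrays (median 0.72), and 18 of 19 over 6 (median 0.53), against 49.3% and 54.9% of all rows. The median gene was 1.18 higher in WT replicate 2 than in WT replicate 1. It was 1.19 higher in PLZF_ON replicate 2 than in PLZF_ON replicate 1. None passed limma. Over the 4 arrays 4 had an unadjusted p under 0.05, all higher, against 4.88% of all rows in that direction. Mki67, the proliferation antigen, read 7.58, 9.18 and 8.11 in WT and 8.61, 9.72 and 8.16 in PLZF_ON (0.79, SE 0.57, limma adjusted p = 0.783). Aurka, the spindle pole kinase, differed by 0.68 (SE 0.17, limma adjusted p = 0.251), Cdc20 by 0.53, Ttk by 1.35 and Kif11 by 1.44.

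**Figure D5:**
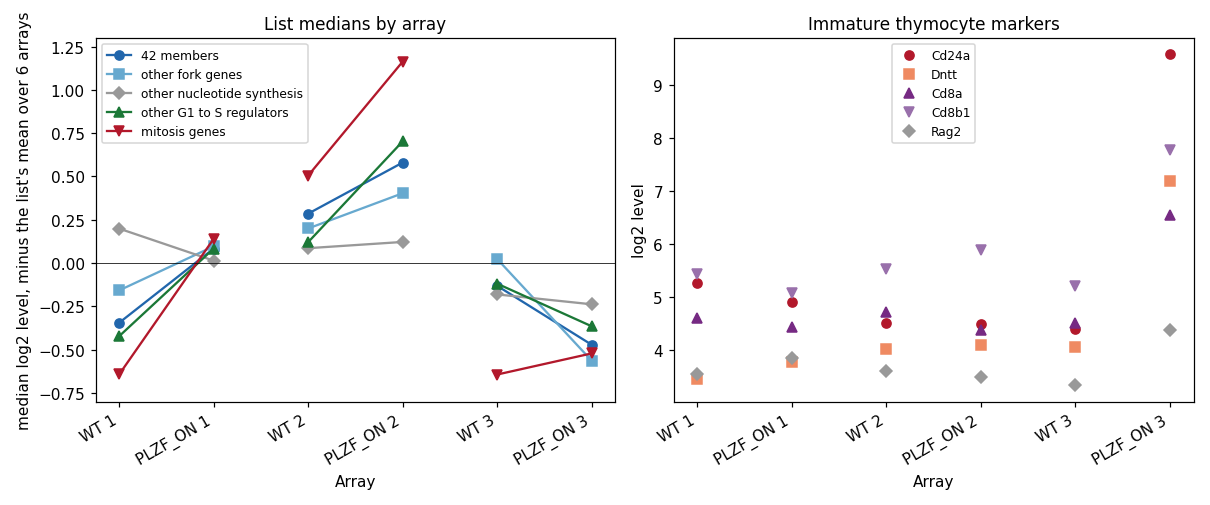
Left, median log2 level of the 42 members and of 4 other lists on each array, minus the list's own mean over the 6 arrays, with lines joining WT and PLZF_ON of the same replicate number. The members' median is higher in PLZF_ON than in WT in replicates 1 and 2 and lower in replicate 3. This compares list medians. The median of the members' own differences in replicate 3 was 0.001, with 21 of 42 above WT. Right, log2 levels of 5 immature thymocyte markers on each array; Cd24a is at 9.58 in PLZF_ON replicate 3 and at 5.27 or less elsewhere.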

How the data were processed

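The authors deposited 1 table of log2 expression values, 41345 rows by 6 arrays, from Affymetrix whole-transcript arrays (biotin-labelled total RNA targets, per the protocols in the labels). The submitters' processing notes name RMA, with no version, and the values entered the fits without further scaling. The build and array annotation behind them: not given in the sources used here. Rows with exactly 1 gene symbol in the platform annotation (23521) were tested, 1814 with several and 16010 not listed were not. Where a gene had several rows, the one brightest on average was used. Genotype was the only term in limma 3.58.1 (R 4.3.3; lmFit and eBayes, two-sided), with Benjamini-Hochberg adjustment over all tested rows at 0.05. SEs are limma's moderated ones. The number of arrays limits the precision. The members, lists, tests and named-gene rule were chosen with earlier results of these data known. Given array by array are the 12 largest differences, every member below WT, the extremes of each role, and Zbtb16, Mcm2, Pcna, Rrm2, Tyms, Cdc6, Cdt1, E2f1 and Ccne1; of other lists, up to 4 genes with the smallest p are named, most by their difference alone, and Mki67. The limma script was tested on simulated data. Promoters are RefSeq's (GRCm38.p6). Alternatives tried were array weights, a variance trend, a second quantile normalization, median centring, a filter on dim rows, all deposited rows, averaged rows per gene, omission of single arrays, and a block for the replicate number. Figures used matplotlib 3.10.9.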

Additional observations from a re-analysis of the deposited data

How the results depend on the processing

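No member passed limma at an adjusted p of 0.05 over 4 or 6 arrays under any alternative tried. Over 4 arrays the smallest adjusted p of a member ranged from 0.0850 (Tyms, replicate number as a block) to 0.516 (without WT replicate 1). Leaving out each array gave 21 to 39 members higher of 42 over 4 arrays with medians from 0.014 to 0.59, and 20 to 40 over 6 arrays with medians from -0.018 to 0.35. The 4-array direction changed for 17 members without WT replicate 1, 16 without PLZF_ON replicate 2, 4 without PLZF_ON replicate 1 and 3 without WT replicate 2, and for none under the alternatives that kept all 4 arrays. No label states whether the replicate numbers pair the arrays. Deviations of same-numbered arrays from their group means correlated at 0.0916, 0.253 and 0.239 over all rows for replicates 1 to 3. Between arrays of different number, PLZF_ON replicate 1 correlated at 0.124 with WT replicate 2, and the rest ran from -0.235 to -0.0298. PLZF_ON replicates 2 and 3 correlated best with the WT array of their own number, and PLZF_ON replicate 1 did not. These values do not settle the pairing. With the number as a replicate block, 101 of all rows passed over 4 arrays, against 40 without it, and 30 over 6, against 22. The block left 0 members passing, with 15 at an unadjusted p under 0.05 over 4 arrays (35.7%, against 10.5% of all rows) and 7 over 6 (16.7%, against 7.17%). Of the mitosis genes 2 passed over 4 arrays (Ttk and Kif11) and 0 over 6. At an unadjusted p under 0.05 in this limma fit there were 16 of 19 over 4 arrays, all higher, and 13 over 6. The shares of all rows are the same 10.5% and 7.17%. The count of all rows passing ranged from 0 to 106 over 4 arrays and from 0 to 107 over 6 when an array was left out; the limma counts of 0 came without PLZF_ON replicate 2 over 4 arrays (1803 rows at an unadjusted p under 0.05), and over 6 without WT replicate 1 (852), WT replicate 2 (960) or PLZF_ON replicate 2 (1531). With all 41345 rows tested, 0 passed in limma over 4 or 6 arrays (3042 and 2100 at an unadjusted p under 0.05), where more rows enter the adjustment. Over 6 arrays median centring gave 5 rows and array weights 259; the cause was not tested. With genotype as the only term, the members' SEs over 4 arrays were 0.14 to 0.49, against a median difference of 0.26. These SEs include the difference between replicates 1 and 2. With the replicate block the SE was 0.145 for Rrm2 (0.490 without it) and 0.157 for Tyms (0.376 without it). For Cdt1 it was 0.254, against 0.239 without the block. There were 7 members not above the receptor limit on every array.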

Other observations

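Genes of the histone clusters, whose mRNAs are made in S phase and bound by Slbp, were looked up after the results were seen, through the synonyms of the RefSeq gene table, since the annotation holds none under the older names. Of 30 such genes 21 had a higher mean in PLZF_ON over the 4 arrays (median 0.055), and 20 over 6 (median 0.089). The shares of all rows were 49.3% and 54.9%. Many of the 30, such as H2ac12, H4c2 and H1f6, read under the receptor limit of 5.21 on every array, where a direction says little. Over the 4 arrays 0 passed limma at an adjusted p of 0.05, against 0.17% of all rows. At an unadjusted p under 0.05 there was 1, lower in PLZF_ON, against 4.53% of all rows in that direction. The linker histone H1f5 read 6.92, 9.26 and 5.49 across WT replicates 1 to 3 and 9.16, 10.40 and 7.64 in PLZF_ON, a difference of 1.69 over the 4 arrays (SE 0.77, limma adjusted p = 0.593). H2bc12 read 3.66, 6.69 and 7.47 in WT and 6.33, 8.08 and 6.94 in PLZF_ON (2.03, SE 1.01). H2ac21 had the opposite sign, at 6.87, 7.53 and 6.44 in WT and 5.35, 6.33 and 6.09 in PLZF_ON (-1.36, SE 0.36, limma adjusted p = 0.288), and so did H4c17 (-0.67). H4c17 read under the receptor limit on every array, and in replicate 3 it was 0.36 above WT. Histone genes have near-identical copies, so that their rows may share signal, and several of the 30 are known from testis or are pseudogenes.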
